A study of Homo sapiens with 6 samples.

Results

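Expression of 10 genes that encode adaptors of mRNA decay was followed in H9 cells, and each was chosen by its symbol in the count table, which lists 61541 Ensembl genes. They were the 3 genes of the ZFP36 family (ZFP36, ZFP36L1 and ZFP36L2) and 5 genes of the BTG/TOB family (BTG1, BTG2, BTG3, TOB1 and TOB2). The others were ZC3H12A, which encodes the endonuclease Regnase-1, and RC3H1, which encodes Roquin-1. All 10 members passed the filter on low counts that left 17678 genes for testing. H9 is a human T cell lymphoma line grown from a single clone of the HUT 78 line, so the values describe 1 line. Bulk RNA-seq was performed on 3 libraries of cells given the vehicle DMSO and on 3 libraries of cells given AZD4573, an inhibitor of the transcription kinase CDK9, for 4 h. The labels name no genetic change in either group. The labels number the libraries but do not say that they came from separate cultures, so the p-values measure the spread between these libraries, which may be technical.

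CDK9 is the kinase of P-TEFb, which releases RNA polymerase II from its pause near the start of genes, and blocking it is best known for depleting transcripts with short half-lives. The adaptors followed here sit at the other end of an mRNA's life. ZFP36 proteins bind AU-rich elements in 3′ UTRs through a pair of CCCH zinc fingers and bring in the CCR4-NOT deadenylase. BTG and TOB proteins bind the deadenylase subunits CNOT7 and CNOT8 directly, and the TOB proteins also bind the poly(A)-binding protein. Roquin-1 and Regnase-1 act on stem-loops in the 3′ UTRs of inflammatory mRNAs, the former by recruiting deadenylation and decapping and the latter by cutting. In T cells BTG1 and BTG2 are known for maintaining quiescence, and ZFP36, ZFP36L2, Regnase-1 and Roquin-1 for restraining activation and cytokine production.

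The libraries held 70367303 to 76571157 counts in the DMSO group and 52101868 to 63795185 in the AZD4573 group. The 13 mitochondrially encoded mRNAs took 3.04% to 3.22% of the counts with DMSO and 4.67% to 4.98% with AZD4573. The T cell identity of the line was checked by 6 markers, whose summed level was 640 to 660 CPM (counts scaled to the library size) with DMSO and 780 to 782 CPM with AZD4573. CD3D, CD3E, CD3G and LCK made up nearly all of it, while CD4 was at 3.77 to 7.05 CPM and CD2 was at most 0.170 CPM. Markers of other lineages were low except EPCAM, at 126 to 171 CPM, and CD79A, at 57.2 to 94.2 CPM. COL1A1 (3.39 to 7.71 CPM), CD79B (3.13 to 5.88 CPM) and CDH1 (3.45 to 4.99 CPM) were at levels like that of CD4. POU5F1 was at 1.11 to 2.21 CPM. The summed myeloid markers did not exceed 1.04 CPM, PAX5 did not exceed 0.0392 CPM, LUM and NANOG were at 0 in all 6 libraries, and the part of these markers in the results below was not tested. In bulk RNA, fewer cells of a type and less RNA per cell cannot be told apart.

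Upon AZD4573 treatment, 4 of the 10 adaptor mRNAs fell by at least 1.5-fold at an adjusted p under 0.05, and 1 rose. BTG1 fell most, to 15.1% of its DMSO level, followed by TOB1 at 35.5%, ZFP36 at 52.8% and BTG3 at 59.0%. ZC3H12A rose 1.58-fold, although it was at 94.6% of its DMSO level when scaled to mitochondrially encoded mRNAs. With the same rule, 23.7% of all genes tested were called lower and 22.7% higher. By adjusted p alone, BTG2 and ZFP36L2 were added and made 6 members lower and 1 higher, against 37.4% and 37.3% of all genes tested. In these 7 members the DMSO and AZD4573 libraries did not overlap, as was the case for 38.7% of all genes tested in the lower and 39.0% in the higher direction. ZFP36L1, TOB2 and RC3H1 did not pass. The median log2 fold change of all genes tested was 0.03.

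**Figure D1:**
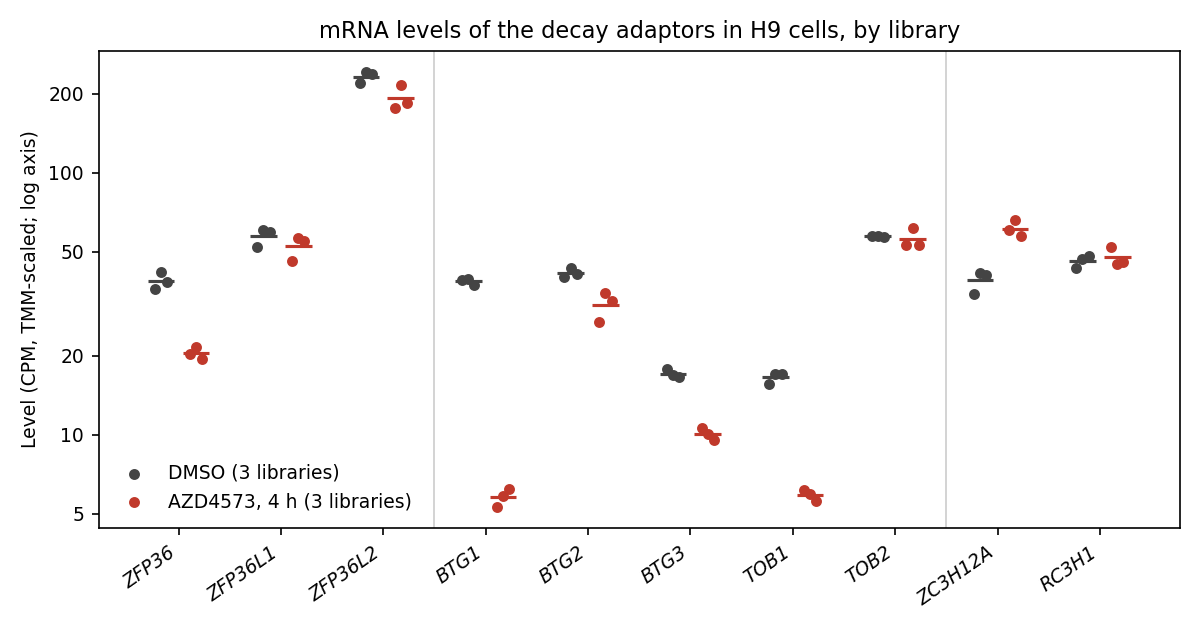
Level of each adaptor mRNA (CPM after TMM scaling, log axis) in the 3 DMSO and the 3 AZD4573 libraries, with a line at each group's mean; vertical lines separate the ZFP36, BTG/TOB and Regnase-1/Roquin-1 genes. BTG1 dropped from 38.5 to 5.79 CPM and TOB1 from 16.6 to 5.90 CPM, while the groups of ZFP36L1, TOB2 and RC3H1 overlapped, and ZC3H12A rose under this scaling but not under scaling to mitochondrially encoded mRNAs.

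All levels below are CPM after TMM scaling, which assumes that most genes keep their level between groups. A second scaling, to the 13 mitochondrially encoded mRNAs, which are made by a polymerase that does not depend on CDK9, shifted the median log2 fold change of all genes tested to -0.71. Under it 53.4% of genes were called lower and 10.0% higher, and 9 of the 10 members were called lower and 0 higher. The order of the members was kept, since a scaling moves them together, and no spike-in that would tell which scaling reflects RNA per cell was analysed here. Fold changes are therefore read relative to the median gene.

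**Figure D2:**
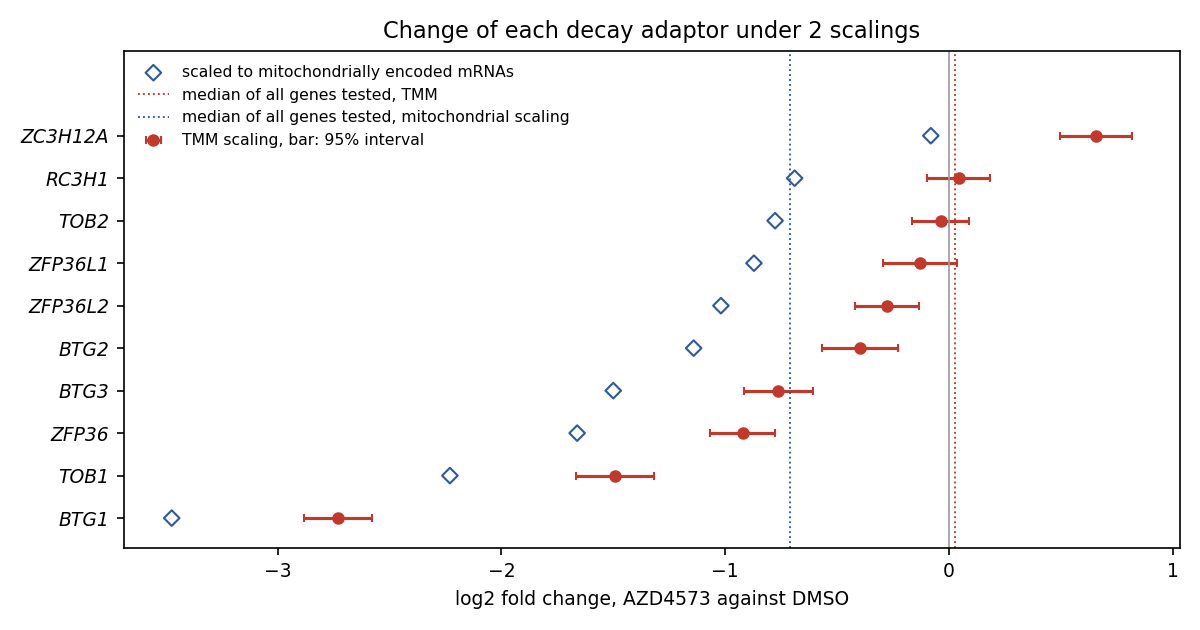
Log2 fold change of each adaptor, AZD4573 against DMSO, under TMM scaling (filled circles, with 95% intervals) and under scaling to the mitochondrially encoded mRNAs (open diamonds); dotted lines mark the median of all genes tested under each, at 0.03 and -0.71. BTG1, TOB1, ZFP36 and BTG3 lie left of the median line of their scaling, and ZC3H12A lies right of it under both.

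BTG1, an antiproliferative adaptor of CCR4-NOT that is often mutated in lymphomas, lies on chromosome 12 (GRCh38, chr12:92140278-92145846, minus strand; ENSG00000133639). Its level was 39.0, 39.2 and 37.4 CPM in the DMSO libraries and 5.33, 5.84 and 6.19 CPM in the AZD4573 libraries. The groups lay far apart, and the fold change of the group means was larger than any spread within a group. The log2 fold change was -2.73 (SE 0.0702, adjusted p = 9.8e-12, edgeR), a 6.64-fold lower level that placed BTG1 at percentile 1.04 of all genes tested. Scaled to the mitochondrially encoded mRNAs, BTG1 was at 9.0% of its DMSO level.

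BTG2, the closest paralog of BTG1 and a well known p53-induced gene, changed much less (chr1:203305491-203309602, plus strand). Its 3 DMSO libraries held 39.9, 43.2 and 41.0 CPM, close to those of BTG1, and its 3 AZD4573 libraries 27.0, 34.6 and 32.4 CPM. The AZD4573 libraries were all below the DMSO libraries, with AZD4573 replicate 1 lowest. The log2 fold change was -0.40 (SE 0.0778, adjusted p = 0.00041), which passed the test but not the 1.5-fold limit.

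BTG3, a more distant family member (chr21:17593653-17612945, minus strand), was at 17.8, 16.9 and 16.6 CPM with DMSO and at 10.6, 10.1 and 9.55 CPM with AZD4573. The groups did not overlap (SD 0.622 and 0.511 CPM), and the log2 fold change was -0.76 (SE 0.0715, adjusted p = 4.0e-07).

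TOB1, the larger adaptor that links the poly(A)-binding protein to CCR4-NOT and is known for restraining T cell proliferation, lies on chromosome 17 (chr17:50862223-50867978, minus strand). It was at 15.59, 17.14 and 16.997 CPM in the DMSO libraries and at 6.17, 5.93 and 5.59 CPM in the AZD4573 libraries, again without overlap. TOB1 fell by 1.49 on the log2 scale (SE 0.0801, adjusted p = 1.7e-09). TOB2, its paralog (chr22:41433494-41446801, minus strand), was at 57.5, 57.4 and 57.1 CPM with DMSO and at 53.2, 61.3 and 53.1 CPM with AZD4573. Of the AZD4573 libraries of TOB2, 1 lay above and 2 below all DMSO libraries. The log2 fold change of TOB2 was -0.04 with a 95% interval of -0.16 to 0.09 (adjusted p = 0.59).

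The 3 genes of the ZFP36 family differed among themselves as well. ZFP36 (chr19:39406847-39409412, plus strand) is an immediate early gene that encodes tristetraprolin, which destabilises TNF mRNA. Its level was 36.0, 41.8 and 38.4 CPM with DMSO and 20.3, 21.5 and 19.5 CPM with AZD4573. The lowest DMSO library exceeded the highest AZD4573 library, and the log2 fold change was -0.92 (SE 0.0669, adjusted p = 3.0e-08).

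ZFP36L2 (chr2:43222402-43226606, minus strand), which with ZFP36L1 acts in lymphocyte development, was the most abundant member. Its libraries held 220, 242 and 237 CPM with DMSO and 176, 216 and 184 CPM with AZD4573. The highest AZD4573 library lay just below the lowest DMSO library, and the other two lay further down. The log2 fold change was -0.28 (SE 0.0663, adjusted p = 0.0019), below the 1.5-fold limit. ZFP36L1 (chr14:68787660-68796253, minus strand) was at 52.2, 60.5 and 59.4 CPM with DMSO and at 45.9, 56.5 and 55.0 CPM with AZD4573, and the groups overlapped. The log2 fold change was -0.13 with a 95% interval of -0.30 to 0.04 (adjusted p = 0.15), and it passed the test without DMSO replicate 1 (log2 fold change -0.20, adjusted p = 0.026).

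The ZFP36 mRNAs carry the motif that their own proteins bind. The nonamer TTATTTATT, the core of an AU-rich element, was found in the 3′ UTR of the canonical GENCODE transcript of each ZFP36 paralog and of no other member, with 1 site in each. It occurs in 9.18% of the 3′ UTRs of the protein-coding genes tested. The sites are shown with 8 bases on each side and the nonamer in capitals, read on the strand of the gene, because they are what the 3 paralogs share although their mRNAs changed to different degrees. They lie at chr19:39409198-39409222, chr14:68788079-68788103 and chr2:43223450-43223474 of GRCh38.
ZFP36: tgacgactTTATTTATTctaatatg
ZFP36L1: ctgttggaTTATTTATTttagaaat
ZFP36L2: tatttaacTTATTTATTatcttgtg
The median log2 fold change was -0.26 in the 1229 tested genes with the nonamer and -0.06 in the 12152 without it, and 33.4% and 26.6% of them were called lower. The shorter pentamer ATTTA was found in the 3′ UTRs of 9 members, ZC3H12A being the exception, and in 70.4% of all 3′ UTRs. A match describes the letters of the transcript and does not show binding.

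ZC3H12A was the 1 member that rose under TMM scaling. The gene (chr1:37474580-37484377, plus strand) was at 34.4, 41.4 and 40.8 CPM with DMSO and at 60.3, 66.2 and 57.3 CPM with AZD4573, so that every AZD4573 library exceeded every DMSO library. The log2 fold change was 0.66 (SE 0.0740, adjusted p = 2.5e-06) and its 95% interval, 0.50 to 0.82, included the 1.5-fold limit. Without DMSO replicate 1, the lowest library, the log2 fold change was 0.57 and the gene was no longer called at 1.5-fold. Under the mitochondrial scaling the log2 fold change was -0.08 (adjusted p = 0.36), or 0.63 above the median of all genes tested. RC3H1 (chr1:173931084-174022357, minus strand) was at 43.5, 46.7 and 48.1 CPM with DMSO and at 52.3, 44.8 and 45.6 CPM with AZD4573. Its groups overlapped, and the log2 fold change was 0.04 with a 95% interval of -0.10 to 0.18 (adjusted p = 0.55).

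To compare members without any scaling between libraries, the counts of 2 members were divided within each library. There were 14 pairs, within the ZFP36 family, within the BTG/TOB family, and of ZC3H12A with RC3H1. Of these, 13 did not overlap between the groups. In an exact permutation test (two-sided) each of the 13 had p = 0.1 (adjusted over the 14 pairs, 0.11). That is the smallest p that 3 against 3 libraries can give. The pairs share members and are not independent, and the share over all pairs of genes was not computed. Among all single genes tested, the groups did not overlap in 38.7% in the lower and 39.0% in the higher direction. Those shares are of TMM-scaled levels of 1 gene, so they are not a background for ratios of 2 genes. The ratio of BTG1 to BTG2 was 0.977, 0.907 and 0.911 with DMSO and 0.197, 0.169 and 0.191 with AZD4573, 5.03-fold lower. BTG1 and BTG2, with nearly the same counts in DMSO, thus came apart, and of the 14 pairs the ratio of BTG1 to TOB2 alone shifted more, at 6.48-fold lower. The ratio of TOB1 to TOB2 was 0.271, 0.298 and 0.298 with DMSO and 0.116, 0.0967 and 0.105 with AZD4573, 2.73-fold lower. ZFP36 fell relative to both of its paralogs, by 0.79 on the log2 scale against ZFP36L1 and by 0.64 against ZFP36L2. The ratio of ZFP36L1 to ZFP36L2 shifted by 0.15 on the log2 scale. The ratio of ZC3H12A to RC3H1 was 0.792, 0.885 and 0.849 with DMSO and 1.15, 1.48 and 1.26 with AZD4573, 1.53-fold higher. BTG2 to BTG3 was the 1 pair with overlapping groups (exact permutation p = 0.2).

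**Figure D3:**
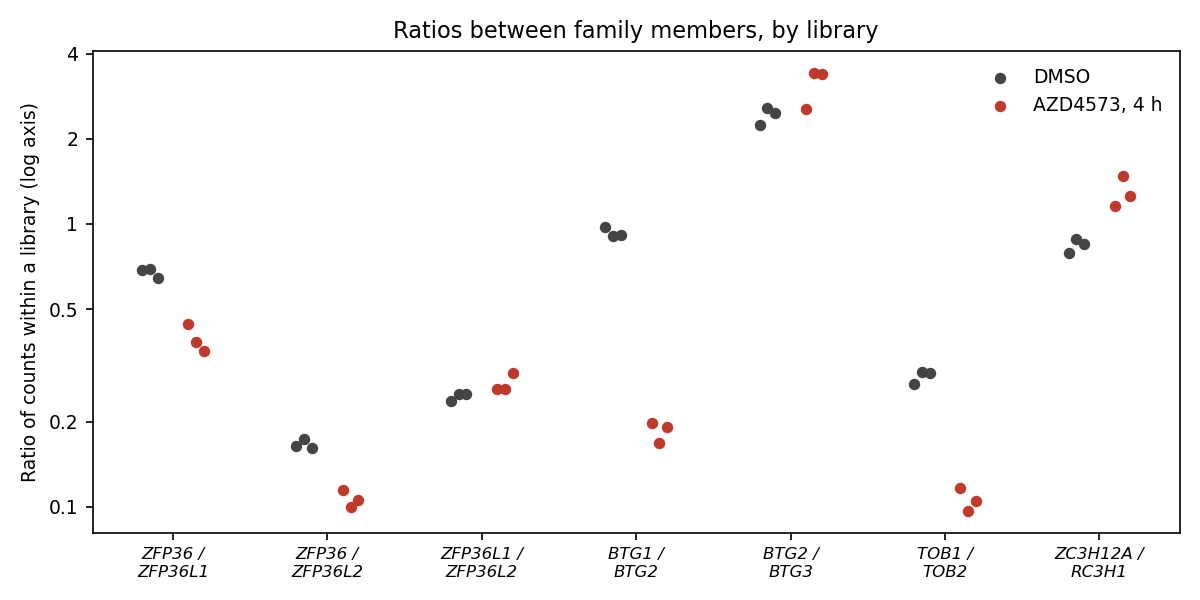
Ratio of the counts of 2 members within each library (log axis) for 7 pairs, with the 3 DMSO libraries in grey and the 3 AZD4573 libraries in red. BTG1 to BTG2 falls from 0.907 to 0.977 with DMSO to 0.169 to 0.197 with AZD4573, TOB1 to TOB2 falls too, and the BTG2 to BTG3 libraries overlap.

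Levels were compared between genes per kilobase of the canonical transcript. With DMSO the order was ZFP36L2 (63.1 CPM per kb), ZFP36 (22.2), ZFP36L1 (19.0), BTG2 (15.2), ZC3H12A (14.6), TOB2 (13.2), BTG3 (12.1), BTG1 (8.32), TOB1 (7.41) and RC3H1 (4.03). ZC3H12A overlapped its neighbours BTG2 and TOB2 in this order, and the other adjacent genes did not overlap. With AZD4573 the order was ZFP36L2 (52.1 CPM per kb), ZC3H12A (23.1), ZFP36L1 (17.4), TOB2 (12.9), ZFP36 (11.7), BTG2 (11.5), BTG3 (7.15), RC3H1 (4.15), TOB1 (2.63) and BTG1 (1.25), where ZFP36 overlapped TOB2 and BTG2. ZC3H12A thus moved from the fifth to the second place, ZFP36 from the second to the fifth and BTG1 from the eighth to the last. Summed per kilobase under TMM scaling, the BTG/TOB family went from 56.2 ± 0.824 to 35.4 ± 2.24 CPM per kb (SD, n = 3). The ZFP36 family went from 104 ± 6.07 to 81.1 ± 7.70, while ZC3H12A and RC3H1 together went from 18.7 ± 1.65 to 27.2 ± 1.64 (SD, n = 3). Scaled to the mitochondrially encoded mRNAs, ZC3H12A was at 94.6% and RC3H1 at 62.0% of its DMSO level. The rise of their sum was therefore not kept under that scaling. Within the BTG/TOB sum BTG1 went from 14.8% ± 0.277 to 3.53% ± 0.277 and TOB1 from 13.2% ± 0.623 to 7.46% ± 0.657, while TOB2 went from 23.5% ± 0.305 to 36.4% ± 1.03 (SD, n = 3). Within the ZFP36 sum ZFP36 went from 21.2% ± 0.569 to 14.5% ± 0.960, and ZFP36L2 remained the main part, at 60.5% ± 0.666 and 64.1% ± 1.19 (SD, n = 3). Per kilobase values rest on 1 transcript a gene, so that the use of other isoforms would change them.

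In their structure most of the members are short genes. In the canonical transcript 7 have 2 exons, and the exceptions are BTG3 with 5, ZC3H12A with 6 and RC3H1 with 20, against a median of 9 exons in all protein-coding genes tested. Genes with at most 2 exons made up 7.46% of these. The 669 genes with 2 exons had a median log2 fold change of -0.40, and 41.6% were called lower and 19.9% higher, whereas of all 13423 protein-coding genes 27.2% were called lower and 18.2% higher. Of the members with 2 exons, BTG1, TOB1 and ZFP36 were called lower, which is 3 of 7, and ZFP36L1, ZFP36L2, BTG2 and TOB2 were not.

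Promoters are shown for BTG1, the member that changed most, for ZFP36, and for ZC3H12A, which rose under TMM scaling. These 3 are shown because TATAA was found before their start and in no other member with a promoter in the table. The 100 bases before the RefSeq start are given 5′ to 3′ on the strand of the gene (GRCh38.p14, chr12:92145847-92145946 minus strand, chr19:39406747-39406846 plus strand and chr1:37474480-37474579 plus strand). Capitals mark the motif TATAA, the motif CCAAT, which reads ATTGG from the other strand, and the motif TGACG, which in turn reads CGTCA from the other strand.
BTG1: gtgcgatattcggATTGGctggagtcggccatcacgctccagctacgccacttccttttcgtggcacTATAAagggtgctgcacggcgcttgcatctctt
ZFP36: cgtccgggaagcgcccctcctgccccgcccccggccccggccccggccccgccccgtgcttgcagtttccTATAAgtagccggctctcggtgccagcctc
ZC3H12A: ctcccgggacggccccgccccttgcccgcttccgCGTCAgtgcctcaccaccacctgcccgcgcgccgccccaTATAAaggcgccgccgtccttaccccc
TATAA was searched on the sense strand 40 to 16 bases before the start and was found in 3.91% of 35116 promoters. CCAAT and TGACG were searched on both strands over 250 bases and were found in 32.0% and 21.2%. Of the 10 members 9 had a promoter in the table, ZFP36L2 being without one, and the start given for RC3H1 lies 29285 bases inside the GENCODE gene. Of the 471 tested genes with TATAA, 26.1% were called lower and 26.5% higher, and of the 10958 without it 26.9% and 18.1%. Under TMM scaling the 3 members with TATAA did not share a direction. Scaled to the mitochondrially encoded mRNAs, BTG1 was at -3.47, ZFP36 at -1.66 and ZC3H12A at -0.08 on the log2 scale, the last not past the test. A part of the motif in these changes was not tested.

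Reads that fall where 2 genes overlap could not be assigned by strand, since the counting was run without a strand setting. BTG1-DT, which starts inside the first exon of BTG1 on the other strand and runs across the BTG1 start, shares 274 of the 4855 exon bases of BTG1 and was at 1.40 CPM with DMSO and 1.34 CPM with AZD4573 (log2 fold change -0.06, adjusted p = 0.77, and -0.81 with adjusted p = 0.0010 under the mitochondrial scaling). It held 60 to 84 counts in the AZD4573 libraries, beside 271 to 378 for BTG1. TOB1-AS1 shares 281 of 2521 exon bases with TOB1 and went the other way, from 0.472 to 1.04 CPM (log2 fold change 1.13, adjusted p = 0.0025, but 0.39 and adjusted p = 0.22 under the mitochondrial scaling), at 49 to 72 counts in the AZD4573 libraries. ZC3H12A-DT, whose start lies 148 bases from that of ZC3H12A on the other strand and which shares no exon base with it, rose from 1.76 to 5.60 CPM (log2 fold change 1.67, adjusted p = 2.7e-07, and 0.93 under the mitochondrial scaling). BTG3-AS1 (0.286 and 0.290 CPM) and the noncoding LINC01619 (0.165 and 0.280 CPM), which shares exon bases with BTG1, did not pass the test. Of the unnamed noncoding genes that share exon bases with ZFP36 family members, ENSG00000289626 rose at a low level (0.134 to 0.381 CPM, adjusted p = 0.013, but 0.16 under the mitochondrial scaling) on ZFP36L1, and ENSG00000287387 on ZFP36L2 (0.202 and 0.356 CPM) did not pass. The processed pseudogenes of BTG1, BTG3 and TOB2 had at most 3 counts in any library.

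The genes around the adaptors were described as lists, which were chosen with earlier results of these data known. Each list was described by the number past an adjusted p of 0.05 in each direction and the median log2 fold change. By this rule 37.4% of all genes tested were lower and 37.3% higher under TMM scaling, and 67.2% and 12.1% under the mitochondrial scaling, with medians of 0.03 and -0.71. Of 8 other genes of the same families 6 were tested, 3 rose and 0 fell, against 1 and 5 under the mitochondrial scaling, with a median log2 fold change of 0.14 under TMM. ZC3H12D, a Regnase-1 paralog of lymphocytes, rose from 34.3 ± 2.87 to 83.0 ± 10.8 CPM (SD, n = 3; log2 fold change 1.28), and KHNYN, a relative with a KH and a nuclease domain, rose by 0.26 on the log2 scale but had a log2 fold change of -0.48 under the mitochondrial scaling. To complete the list beyond the rule for named genes, RC3H2, the paralog of RC3H1, rose under TMM scaling (log2 fold change 0.14) and was not the 1 gene higher under the mitochondrial scaling, and ZC3H12B, N4BP1 and BTG4 had log2 fold changes of -0.09, -0.07 and 0.14 and did not pass. ZC3H12C and NYNRIN did not pass the filter on low counts.

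Of the 19 deadenylase and poly(A)-binding genes, 14 fell and 4 rose (16 and 1 under the mitochondrial scaling), with a median of -0.30. The list holds subunits of CCR4-NOT, which BTG, TOB and ZFP36 proteins recruit, together with other genes. CNOT6L and CNOT6, alternative paralogs of 1 type of catalytic subunit of CCR4-NOT, fell from 24.6 ± 1.60 to 9.01 ± 0.441 CPM and from 43.5 ± 1.01 to 20.1 ± 1.88 CPM (SD, n = 3; log2 fold changes -1.45 and -1.11). CNOT7 and CNOT8, the other catalytic subunits and the partners of BTG and TOB proteins, are named although the rule for named genes does not take them, after their values were seen, and fell less, with log2 fold changes of -0.19 and -0.26, short of 1.5-fold. PAN2, the catalytic subunit of the other deadenylase complex, rose from 62.2 to 136 CPM (log2 fold change 1.12). PABPC1, the main cytoplasmic poly(A)-binding protein, rose by 0.83 on the log2 scale from 2190 CPM but did not pass under the mitochondrial scaling (0.09), a value that is less certain because PABPC1 has many processed pseudogenes.

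Of the 20 genes of decapping, 5′ to 3′ decay and translational repression, 13 fell and 3 rose (18 and 0 under the mitochondrial scaling), with a median of -0.27. DCP1B, a decapping activator, went from 9.91 to 4.22 CPM (log2 fold change -1.24) and EDC4, the scaffold of the decapping complex, from 198 to 112 CPM (-0.82). GIGYF1, which represses translation together with EIF4E2, rose by 0.89 on the log2 scale and LSM4, of the LSM ring that binds deadenylated ends, by 0.70, although neither passed under the mitochondrial scaling (0.15 and -0.04). The 23 other RNA-binding regulators were split, with 10 lower and 7 higher (19 and 1 under the mitochondrial scaling) and a median of -0.03. ARID5A, which stabilises some targets of Regnase-1, fell from 74.3 to 32.5 CPM (log2 fold change -1.19), and CPEB2, a regulator of cytoplasmic polyadenylation, fell at a low level (1.45 to 0.491 CPM). SAMD4A, a Smaug family repressor, rose from 4.62 to 21.5 CPM (log2 fold change 2.22), and CELF1, which binds GU-rich elements, rose by 0.84 on the log2 scale but did not pass under the mitochondrial scaling (0.10).

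Of the 28 kinases, phosphatases and proteases that act on the adaptors or upstream of them, 13 fell and 8 rose (26 and 1 under the mitochondrial scaling), with a median of -0.05. MALT1, the protease that cleaves Regnase-1 and Roquin-1 in activated T cells, fell from 55.2 ± 0.322 to 18.3 ± 1.34 CPM (SD, n = 3; log2 fold change -1.60). DUSP1, the phosphatase that switches off p38, fell at a low level (1.08 to 0.179 CPM). MAP2K6, an activator of p38, rose from 1.58 to 3.66 CPM and MAPK3, which encodes ERK1, from 48.2 to 73.1 CPM, although the log2 fold change of MAPK3 was -0.14 under the mitochondrial scaling.

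Of the 29 mRNAs described as targets of ZFP36, Roquin or Regnase-1, 25 were tested, and 11 fell and 11 rose (19 and 3 under the mitochondrial scaling), with a median of -0.01. NOTCH1, a driver of T cell fate and leukemia, fell from 119 to 35.5 CPM (log2 fold change -1.74) and NFKBID, an atypical IκB, from 14.8 to 5.11 CPM (-1.54). TNFRSF4, which encodes the costimulatory receptor OX40, and CCND1, which encodes cyclin D1, rose but from below 1 CPM (to 1.29 and 1.16 CPM). They had the largest rises of the list, and the other targets that rose under TMM scaling started from 14.1 CPM or more. CSF2, IL6, CXCL8 and CTLA4 did not pass the filter on low counts.

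Of the 17 T cell quiescence factors 16 were tested, and 10 fell and 5 rose (13 and 1 under the mitochondrial scaling, and 3 rose without AZD4573 replicate 3), with a median of -0.32. KLF2 and FOXO1, transcription factors of resting T cells, fell from 9.80 to 2.296 CPM (log2 fold change -2.09) and from 24.1 to 6.75 CPM (-1.84). SLFN5, an interferon-induced Schlafen gene, rose from 335 ± 7.71 to 1106 ± 66.4 CPM (SD, n = 3; log2 fold change 1.72), and CDKN1B, which encodes the inhibitor p27, rose by 0.59 on the log2 scale but not under the mitochondrial scaling (-0.15). The 13 mitochondrially encoded mRNAs, the list used for the second scaling, all rose under TMM scaling, with a median of 0.71.

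**Figure D4:**
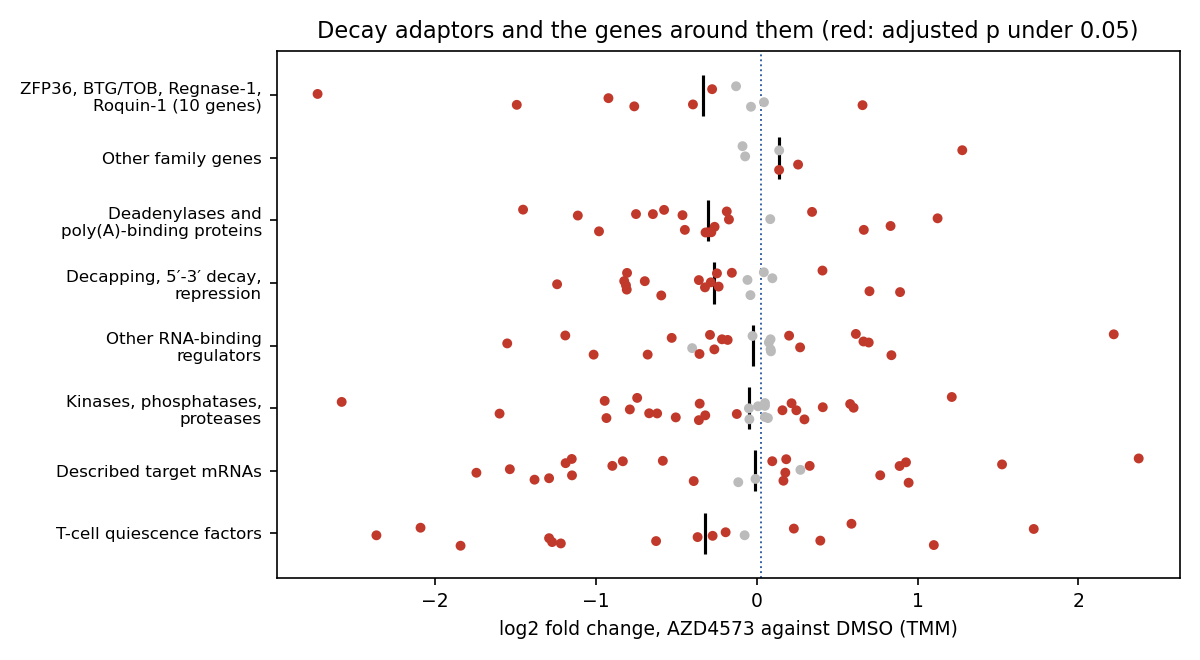
Log2 fold change (AZD4573 against DMSO, TMM scaling) of the 10 adaptors and of each tested gene of 7 lists; red points have an adjusted p under 0.05, black lines mark the median of each row and the dotted line marks the median of all genes tested. The rows of deadenylases and quiescence factors have medians of -0.30 and -0.32, and that of the described target mRNAs lies at -0.01.

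The 3 genes whose profile over the 6 libraries was most like that of BTG1 were SLC38A2, a neutral amino acid transporter, SNX18, a sorting nexin, and MSX1, a homeobox transcription factor. Likeness was the root mean square difference of centred log2 CPM, over protein-coding genes with a mean of at least 10 CPM, and was 0.0720, 0.122 and 0.129. SLC38A2 went from 107 to 15.5 CPM (log2 fold change -2.79), and SNX18 and MSX1 had log2 fold changes of -2.52 and -2.54. These profiles share the same 6 libraries and mostly restate the difference between the groups.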

How the data were processed

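RNA-seq was performed on 3 DMSO and 3 AZD4573 libraries of H9 cells, each mapped to its group by its label. The labels state poly(A) RNA, whereas the supplemental methods describe depletion of ribosomal RNA. The authors trimmed reads with Cutadapt 2.3, aligned them to GRCh38 with STAR 2.7.8a and estimated counts per gene with RSEM 1.3.3 at default settings, which do not use strand. The deposited values are expected counts per gene as whole numbers, not normalized, for 61541 Ensembl genes and for 5 reporter entries with 0 counts, which were left out.

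Low-count genes were removed with filterByExpr (minimum count 10). The counts were fitted in R 4.3.3 with edgeR 4.0.16 (TMM factors, quasi-likelihood test, Benjamini-Hochberg adjustment over 17678 genes), and a gene was called at an adjusted p under 0.05 where the fold change also reached 1.5. The study's methods used DESeq2, which was run as an alternative (DESeq2 1.42.0). Further alternatives were RLE factors, library size alone, scaling to 13 mitochondrially encoded mRNAs, no filter, at least 10 counts in every library, a replicate block, a fold of 2, a prior count of 2 for ratios, and leaving out each library. The test was checked on simulated counts. Ratios of members were compared by an exact permutation test, and lists were described by counts and medians, with no set test. Gene structure and 3′ UTRs came from GENCODE v44 (GRCh38), and promoters came from RefSeq.

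The members and lists were chosen with earlier results of these data known. The genes named were the 10 members, the genes that share their exons or name and passed the low-count filter, up to 2 falls and 2 rises of each list (adjusted p under 0.05, no overlap, at least 1 CPM), and the 3 genes most like BTG1. Counts of libraries of a group differed by more than sampling noise (chi-square per degree of freedom 5.62 to 21.5). Libraries of the same number did not deviate together (correlations -0.0208 to 0.0417, none over 0.1), so the numbers were not taken as pairs. A count of 0 allows up to 0.0392 to 0.0576 CPM (3 counts), which covers counting error only.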

Additional observations from a re-analysis of the deposited data

How the results depend on the processing

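BTG1, TOB1, ZFP36, BTG3, BTG2 and ZFP36L2 remained past the adjusted p in the same direction under every alternative run. The 14 ratios between members kept their direction with a prior count of 2 and when each library was left out. Scaling cannot change a ratio within a library, and the ratios were not rerun under the other alternatives. Scaling to mitochondrially encoded mRNAs gave log2 fold changes of -0.87 for ZFP36L1, -0.78 for TOB2 and -0.69 for RC3H1, all past the test, and -0.081 for ZC3H12A. It left 9 members called lower and 0 higher, against 53.4% and 10.0% of all genes tested. By library size alone the log2 fold changes were -0.23 for ZFP36L1 (adjusted p = 0.018), -0.14 for TOB2 (adjusted p = 0.045) and -0.059 for RC3H1. With that setting 0 members were called higher, against 19.5% of all genes tested. ZFP36L1 also passed when low counts were not removed (-0.17) and with a replicate block (-0.13, adjusted p = 0.031), and TOB2 was at 0.0011 with at least 10 counts in every library. The labels share replicate numbers, and 4 of 6 libraries correlated best with the library of their own number. The correlations of -0.0208 to 0.0417 did not bear out this hint of pairing. With the block no member but ZFP36L1 crossed the adjusted p of 0.05, and no member's call at 1.5-fold changed. At a fold of 2, 2 members were called lower and 0 higher, and the share of all genes tested was not computed at this fold. Leaving out 1 library gave -0.20 to -0.046 for ZFP36L1 and -0.031 to 0.081 for RC3H1, and 0 to 1 members called higher. Without DMSO replicate 1, 0 members were called higher, against 22.6% of all genes tested.

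Among the lists, mitochondrial scaling gave 5 lower and 1 higher in the other family genes, 1 higher deadenylase gene, 0 higher decapping genes, 19 lower and 1 higher RNA-binding regulators, 26 lower and 1 higher kinases, phosphatases and proteases, 19 lower and 3 higher described targets and 1 higher quiescence factor. Library size alone gave 1 lower gene of the other families and 7 higher targets, with the median log2 fold change of all genes tested at -0.08. The share of all genes past the adjusted p alone was not computed with that setting. Leaving out 1 library gave 3 to 5 higher quiescence factors. The causes were not tested, though a scaling shifts every gene together by construction. No filter and DESeq2 tested 31323 genes, of which DESeq2 gave no adjusted p for 7290. With 3 libraries a group, the ratios could not reach a p under 0.1.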
